A study of Mus musculus with 18 samples.

Results

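Chemokines, the small secreted proteins that direct the movement of white blood cells, and their receptors were examined in the soleus and the extensor digitorum longus (EDL) of mice flown for 30 days on the Bion-M1 biosatellite. Genes were taken by name: a probe set that names a single gene whose symbol starts with Ccl, Cxcl, Ccr, Cxcr or Xcr and a digit, or is Xcl1, Cx3cl1, Cx3cr1 or Pf4, and for each gene the probe set with the highest mean signal. This gave 50 genes, 33 ligands and 17 receptors, read by 67 probe sets, out of 12393 genes on the array. All mice were male, of the C57BL/N6 background, and 19 to 20 weeks old. BF (Bion Flown) mice spent 30 days in microgravity, ate a paste diet after 2 weeks of adaptation to it, and were moved in their housing to the place of dissection within 12 to 14 hours of landing. FC (Flight Control) mice lived in a standard animal facility on standard chow. BG (Bion Ground) mice lived for 30 days on the ground in a replica of the flight habitat and ate the same paste. Each group had 3 soleus and 3 EDL arrays, 18 arrays in all. For BF EDL replicates 2 and 3 the description line numbers the flight differently from their own source name, which is Bion M1, and both were kept in BF EDL. Microgravity cannot be told apart from landing and transport in either comparison of BF mice, nor from diet and housing in the comparison with FC mice. Housing and diet also differ together between FC and BG mice.

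Chemokine ligands are released by macrophages, endothelial cells, fibroblasts, fat cells and muscle cells, and bind G protein-coupled receptors on leukocytes. CC ligands such as Ccl2 call monocytes through Ccr2, CXC ligands such as Cxcl1 call neutrophils through Cxcr2, and interferon-induced ligands such as Cxcl10 call T cells through Cxcr3. A few ligands, Cxcl12 first among them, are made steadily and hold cells in place, while most are switched on by injury, by cytokines and by the transcription factor NF-kappaB. In damaged muscle, Ccl2 and its relatives are known for bringing in the monocytes that clear debris and support repair.

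Values were log2 signals between 2.11 and 14.53, with array medians of 6.17 to 6.26 and correlations of 0.978 to 0.995 between arrays of a group. The muscle labels held: the mean of 6 slow fibre markers was 12.91 to 13.4 in BF soleus, 13.81 to 13.86 in FC soleus and 13.82 to 13.85 in BG soleus, against 7.11 to 10.68 over the EDL arrays. The chemokine probe sets were mostly dim, and 40 of the 50 had a mean under 6. The 5 highest means belonged to the probe sets of Cxcl12 (8.83), Pf4 (8.29), Ccl6 (7.91), Cxcl14 (7.67) and Ccl11 (7.59) and the 3 lowest to those of Cxcl5 (2.88), Cxcl2 (3.53) and Cxcr6 (3.53). Probe sets bind with different strength, so these means do not rank the amounts of RNA. Nothing in the labels ties arrays to separate litters or cages, and the p-values below measure only the spread between these arrays. The fit assumes the same spread of a probe set in all 6 groups. Where BF soleus arrays scatter more than the rest, standard errors and p-values of comparisons with BF soleus come out too small. Those of comparisons without BF soleus then come out too large.

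The comparison of BF with BG soleus asks what flight added to life in the habitat. In it 13 of the 50 genes rose (26%) and 1 fell, at an adjusted p under 0.05 in a linear model over all probe sets. Over all 12393 genes 11.1% rose and 12.3% fell, and the arrays of the groups did not overlap for 20 of the 50 upward (40%) and 3 downward, against 21.1% and 19% of all genes. Among genes with a mean signal under 6, 11 of 40 chemokine genes rose (27.5%) and none fell, against 12.7% and 2.58% of all 4952 such genes. The median difference was 0.29 over the chemokine genes and 0.03 over all genes, on the log2 scale, and 0.14 over all genes with a mean under 6. The 13 that rose were Ccl1, Ccl2, Ccl7, Ccl12, Ccl24, Ccl25, Cxcl1, Cxcl2, Cxcl5, Cxcl10, Cxcl13, Cxcl16 and the receptor Ccr7, and the gene that fell was Ccl27a. Of the 50, 6 (12%) rose by more than 2-fold, against 1.96% of all genes. In the comparison of BF with FC soleus, which sets flight against ordinary housing, 10 of the 50 rose (20%) and 2 fell, against 9.02% and 16% of all genes. Arrays did not overlap for 14 upward and 2 downward, against 15.7% and 22.6% of all genes, and over 2-fold rises numbered 6, against 1.82%. Of the 40 genes with a mean under 6, 9 rose and 1 fell, against 7.23% and 4.02%. Those that rose were Ccl2, Ccl3, Ccl7, Ccl12, Ccl17, Ccl24, Ccl25, Cxcl1, Cxcl10 and Cxcl13, and those that fell were Cxcl11 and Cxcl12. With 1 array left out the counts were lowest without BF soleus replicate 1, at 9 against BG and 8 against FC, and the count against FC was also 8 without replicate 2. Both comparisons use the same 3 BF arrays, so genes that appear in both are not found independently. Ccl2, Ccl7, Ccl12, Cxcl1, Cxcl10 and Cxcl13 were also picked out in the study from these same arrays, and their values here are no independent evidence.

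**Figure D1:**
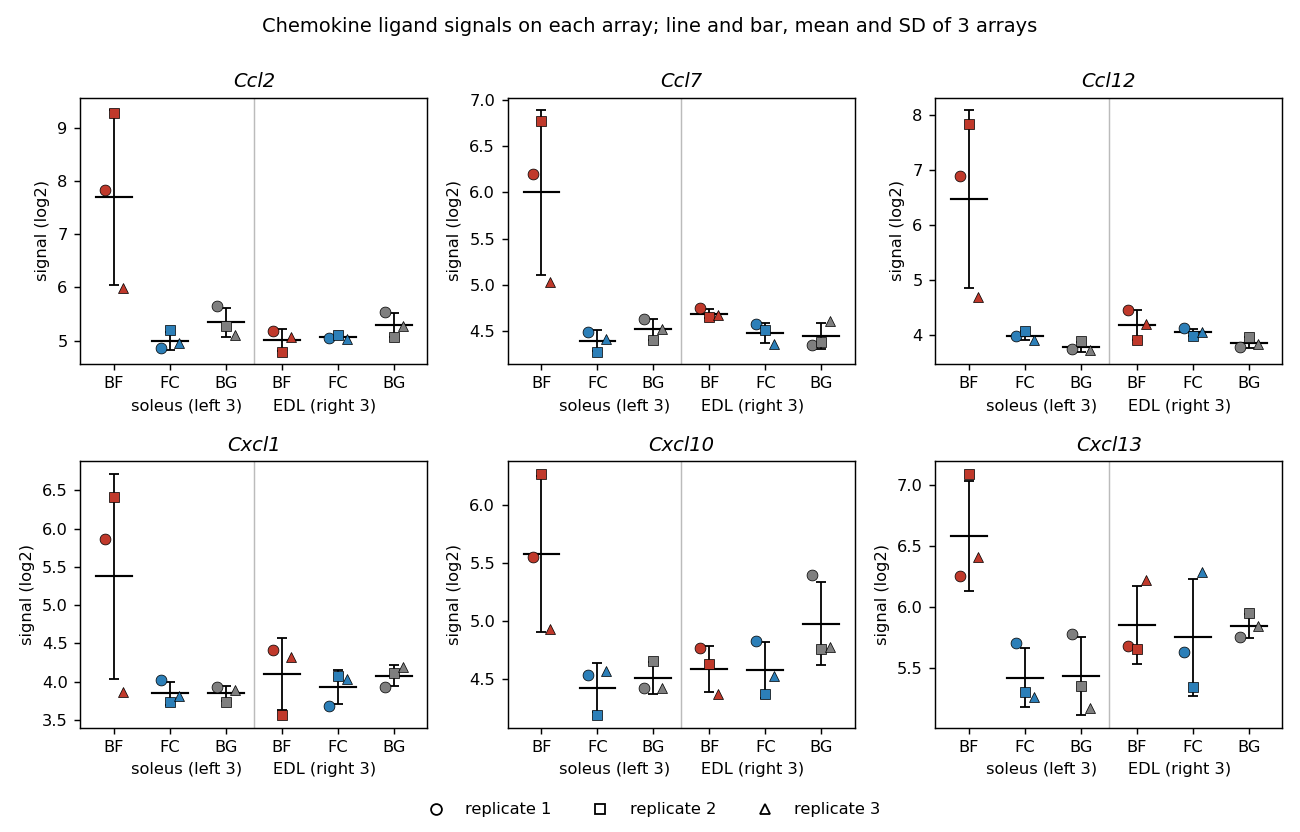
Log2 signal of Ccl2, Ccl7, Ccl12, Cxcl1, Cxcl10 and Cxcl13 on each of 18 arrays, with BF, FC and BG soleus on the left and BF, FC and BG EDL on the right of each panel; lines and bars are the mean and SD of 3 arrays and each panel has its own axis. The 3 BF soleus arrays lie far apart, with replicate 3 lowest for all of these genes but Cxcl13.

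Among the ligands of Ccr2, the monocyte attractants, 3 of 4 rose in BF soleus against either control. Of all genes 11.1% rose against BG and 9.02% against FC. Ccl2 (monocyte chemoattractant protein 1) had signals of 7.83, 9.28 and 5.99 in BF soleus, against 4.85, 5.19 and 4.96 in FC soleus and 5.65, 5.27 and 5.1 in BG soleus. All BF arrays lay above all ground arrays, with replicate 3 the closest to them. The difference was 2.70 ± 0.48 from FC (standard error, 6.48-fold, adjusted p = 0.00078) and 2.36 ± 0.48 from BG (5.14-fold, adjusted p = 0.0027). Ccl12, a mouse relative of Ccl2 with the same receptor, had signals of 6.89, 7.85 and 4.69 in BF soleus, against 3.98, 4.07 and 3.92 in FC soleus and 3.75, 3.9 and 3.73 in BG soleus. Here too the groups did not overlap. Ccl12 was 5.6-fold above FC (log2 difference 2.49 ± 0.47, adjusted p = 0.0011) and 6.42-fold above BG (2.68 ± 0.47, adjusted p = 0.00088). Its SD was 1.62 in BF soleus, against 0.08 in FC and 0.09 in BG soleus. The spread shared over all groups makes these standard errors and p-values smaller than the soleus groups compared would give by themselves. Ccl7, which also binds Ccr1 and Ccr3, had signals of 6.2, 6.77 and 5.03 in BF soleus, against 4.49, 4.28 and 4.42 in FC soleus and 4.63, 4.41 and 4.52 in BG soleus. Its ground arrays stayed within a narrow band that all flown arrays exceeded. Ccl7 was 3.04-fold above FC (1.60 ± 0.27, adjusted p = 0.00047) and 2.79-fold above BG (1.48 ± 0.27, adjusted p = 0.0012). The calls of these 3 genes against BG and against FC held when any one of the 18 arrays was left out, but without BF soleus replicate 2 or replicate 3 the size moved: the difference of Ccl12 from BG ran between 2 and 3.58 and that of Ccl2 between 1.57 and 3.22. The fourth ligand, Ccl8, which in mice also acts through Ccr8, averaged 5.95 ± 0.14 in BF, 5.82 ± 0.14 in FC and 5.53 ± 0.03 in BG soleus (SD, n = 3 each, adjusted p = 0.13 against BG).

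Of 4 genes grouped as ligands of Cxcr2, the neutrophil receptor, 3 rose in BF against BG soleus and 1 of them, Cxcl1, also against FC soleus. The shares of all genes that rose were 11.1% and 9.02%. Cxcl1 (the keratinocyte-derived chemokine KC) had signals of 5.86, 6.41 and 3.87 in BF soleus, against 4.02, 3.73 and 3.81 in FC soleus and 3.93, 3.73 and 3.89 in BG soleus. BF replicates 1 and 2 stood well above the ground arrays while replicate 3 lay among them, so the groups overlapped. The mean was 2.88-fold that of BG (log2 difference 1.53 ± 0.41, adjusted p = 0.014) and 2.88-fold that of FC (1.53 ± 0.41, adjusted p = 0.013). The call against BG was lost without BF soleus replicate 1 (1.29, adjusted p = 0.068) and without replicate 2 (1.01, adjusted p = 0.069), and so was the call against FC (1.28, adjusted p = 0.058, and 1.01, adjusted p = 0.068). Cxcl2 (macrophage inflammatory protein 2), the neighbour of Cxcl1 on the chromosome, had signals of 3.99, 4.18 and 3.67 in BF soleus, against 3.69, 3.85 and 3.24 in FC soleus and 3.43, 3.04 and 3.45 in BG soleus. It rose against BG (0.64 ± 0.19, adjusted p = 0.02) and gave 0.36 ± 0.19 against FC (adjusted p = 0.18). Its call was lost without BF soleus replicate 1 (adjusted p = 0.059), BF soleus replicate 2 (0.076) or BG soleus replicate 2 (0.096). Cxcl5, an attractant first found in stimulated epithelial cells, had the lowest mean signal of the 50 and passed against BG by a margin (0.50 ± 0.18, adjusted p = 0.049) that leaving out any of 15 of the 18 arrays ended (adjusted p up to 0.18). It was also lost under 6 of 10 other settings, among them equal array medians and a fit of soleus alone. Cxcl15, or lungkine, gave -0.32 ± 0.14 against BG (adjusted p = 0.12).

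The ligands of Cxcr3, induced by interferon and read by activated T cells, did not share a direction. Cxcl10 had signals of 5.55, 6.27 and 4.93 in BF soleus, against 4.54, 4.19 and 4.57 in FC soleus and 4.43, 4.66 and 4.43 in BG soleus, with no overlap. It was 2.22-fold above FC (1.15 ± 0.25, adjusted p = 0.0034) and 2.11-fold above BG (1.08 ± 0.25, adjusted p = 0.0064). Cxcl9 averaged 4.98 ± 0.05 in BF, 5.03 ± 0.3 in FC and 5.07 ± 0.22 in BG soleus (SD, n = 3 each) and passed no test. Cxcl11 had signals of 5.1, 5.02 and 5.17 in BF soleus, against 5.9, 6.56 and 5.59 in FC soleus and 5.8, 5.62 and 5.33 in BG soleus. The flown arrays lay below every ground array. Cxcl11 fell by 0.92 ± 0.22 against FC (adjusted p = 0.0056) and gave -0.49 ± 0.22 against BG (adjusted p = 0.11). RefSeq lists mouse Cxcl11 as a transcribed pseudogene, as the C57BL/6 reference strain carries a disrupted reading frame, and a second, dimmer probe set of it (mean 3.01) gave -0.31 ± 0.11 against FC (adjusted p = 0.05, just past the threshold on the side of no call).

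Cxcl13, which draws B cells through Cxcr5, had signals of 6.25, 7.09 and 6.41 in BF soleus, against 5.7, 5.3 and 5.26 in FC soleus and 5.78, 5.35 and 5.17 in BG soleus. The lowest flown array exceeded the highest ground array. It was 2.24-fold above FC (1.16 ± 0.25, adjusted p = 0.0027) and 2.22-fold above BG (1.15 ± 0.25, adjusted p = 0.0036), and its second probe set gave larger differences of 1.53 ± 0.36 (adjusted p = 0.0054) and 2.10 ± 0.36 (adjusted p = 8e-04). Both calls held without any one array. Of all the ligands called in BF soleus against both controls with a change above 2-fold, this was the one whose flown replicates were closest together (SD 0.45, against 0.67 for Cxcl10, 0.89 for Ccl7, 1.34 for Cxcl1, 1.62 for Ccl12 and 1.65 for Ccl2).

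**Figure D2:**
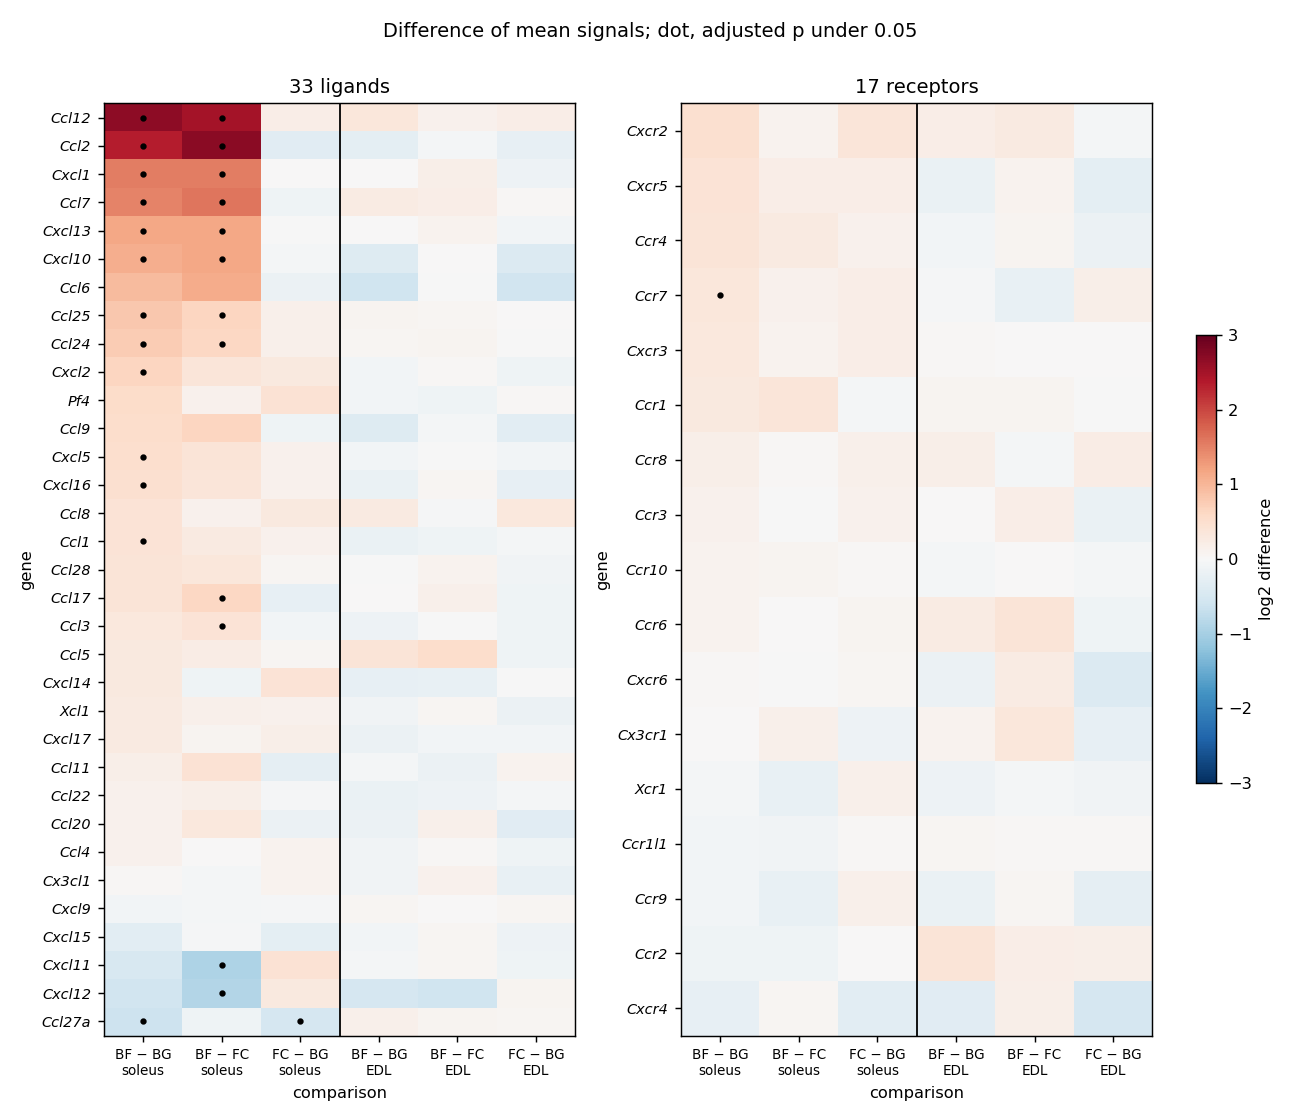
Log2 difference between group means for 33 ligands (left) and 17 receptors (right) in 6 comparisons, soleus left of the black line and EDL right of it; red is higher and blue lower in the group named first, dots mark an adjusted p under 0.05. Most dots lie in the first pair of soleus columns among the ligands, Ccl27a alone has one in FC against BG, 1 receptor (Ccr7) has a dot, and no EDL column has any.

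Of 7 further CC ligands, which act on monocytes, eosinophils and T cells, 1 rose in BF against BG soleus and 2 against FC soleus. Over all genes 11.1% and 9.02% rose. Ccl24 (eotaxin 2, which acts on eosinophils through Ccr3) had signals of 6.67, 6.94 and 6.81 in BF soleus, against 6.28, 6.3 and 5.98 in FC soleus and 6.21, 6.14 and 5.74 in BG soleus. The flown replicates agreed to within 0.14 (SD) and did not overlap the ground arrays. Ccl24 rose by 0.77 ± 0.19 against BG (1.71-fold, adjusted p = 0.0074) and by 0.62 ± 0.19 against FC (adjusted p = 0.023). The call against FC was lost without BF soleus replicate 2 (adjusted p = 0.073) or FC soleus replicate 3 (adjusted p = 0.1). Ccl3 (macrophage inflammatory protein 1 alpha) rose against FC, with 4.18, 4.11 and 3.95 in BF soleus against 3.72, 3.64 and 3.69 in FC soleus (0.40 ± 0.13, adjusted p = 0.034), and it lost the call when any 1 of 5 of these arrays, all but BF replicate 3, was left out (adjusted p up to 0.11), and with quantile or cyclic loess normalization. Ccl6 and Ccl9 are rodent ligands of Ccr1 made by macrophages and other myeloid cells. Ccl6 had signals of 8.57, 9.39 and 8.15 in BF soleus, against 7.42, 7.49 and 7.83 in FC soleus and 8.18, 7.23 and 7.84 in BG soleus. Its difference of 1.12 ± 0.44 from FC and 0.95 ± 0.44 from BG did not pass (adjusted p = 0.075 and 0.13). The comparison with FC did pass without BF soleus replicate 3 or BF EDL replicate 2. A second probe set of Ccl6 (mean 6.38) gave 0.45 ± 0.37 against FC and 0.27 ± 0.37 against BG (adjusted p = 0.41 and 0.63). Ccl9 gave 0.52 ± 0.40 against BG (adjusted p = 0.36), Ccl5 0.29 ± 0.17 (adjusted p = 0.23), Ccl4 0.12 ± 0.15 (adjusted p = 0.59) and Ccl11, the first eotaxin, 0.17 ± 0.20 (adjusted p = 0.58).

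The 7 ligands of Ccr4, Ccr6, Ccr8, Ccr9 and Ccr10, receptors that guide lymphocytes to skin, gut and thymus, held 2 genes that rose and 1 that fell against BG. Over all genes 11.1% rose and 12.3% fell. Ccl25, the thymic and intestinal ligand of Ccr9, had signals of 5.99, 5.54 and 5.82 in BF soleus, against 5.44, 4.93 and 5.05 in FC soleus and 4.98, 4.94 and 5.01 in BG soleus. The BG arrays lay within 0.07 of each other and clear of the flown arrays. Ccl25 rose by 0.81 ± 0.18 against BG (1.75-fold, adjusted p = 0.0041) and by 0.64 ± 0.18 against FC (adjusted p = 0.014), the call against FC being lost without BF soleus replicate 1 (adjusted p = 0.061), FC soleus replicate 2 (0.071) or FC soleus replicate 3 (0.052). Ccl1, the ligand of Ccr8, rose against BG (0.41 ± 0.14, adjusted p = 0.045) with signals of 4.55, 4.46 and 4.69 in BF against 4.45, 4.08 and 3.95 in BG soleus. That call ended without any of 8 of the 18 arrays (adjusted p up to 0.19) and under 5 of 10 other settings: without moderation, in a fit of soleus alone, with equal array medians, and with quantile or cyclic loess normalization (adjusted p of 0.061 to 0.14). Equal array medians left 11 of the 14 calls against BG, without Ccl1, Cxcl5 and Ccr7. Ccl17, a ligand of Ccr4, rose against FC (0.62 ± 0.20, adjusted p = 0.032), with overlapping signals of 5.66, 5.92 and 5.12 in BF against 4.97, 5.15 and 4.72 in FC soleus, and lost the call without BF replicate 1 (adjusted p = 0.089), BF replicate 2 (0.14), FC replicate 1 (0.063) or FC replicate 3 (0.13), and also without moderation and with quantile or cyclic loess normalization. Ccl22 (0.14 ± 0.14 against BG), Ccl20 (0.13 ± 0.11) and Ccl28 (0.39 ± 0.17) passed in no comparison.

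Ccl27a, the skin ligand of Ccr10, ran the other way. It had signals of 6.08, 6.36 and 6.38 in BF soleus and 6.38, 6.42 and 6.41 in FC soleus, against 6.88, 6.87 and 6.97 in BG soleus. All BG arrays lay above all BF and FC arrays. Ccl27a fell by 0.63 ± 0.13 in BF against BG (adjusted p = 0.0025) and by 0.50 ± 0.13 in FC against BG (adjusted p = 0.019), while BF and FC differed by -0.13 ± 0.13 (adjusted p = 0.51). The probe set is of a kind that can bind related transcripts, and another pair of probe sets that name both Ccl27a and its copy Ccl27b was left out, so the reading for Ccl27a is uncertain as to which copy it measures. The FC to BG call was lost without BG soleus replicate 3 (adjusted p = 0.073), FC soleus replicate 1 (0.056) or FC soleus replicate 2 (0.063).

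**Figure D3:**
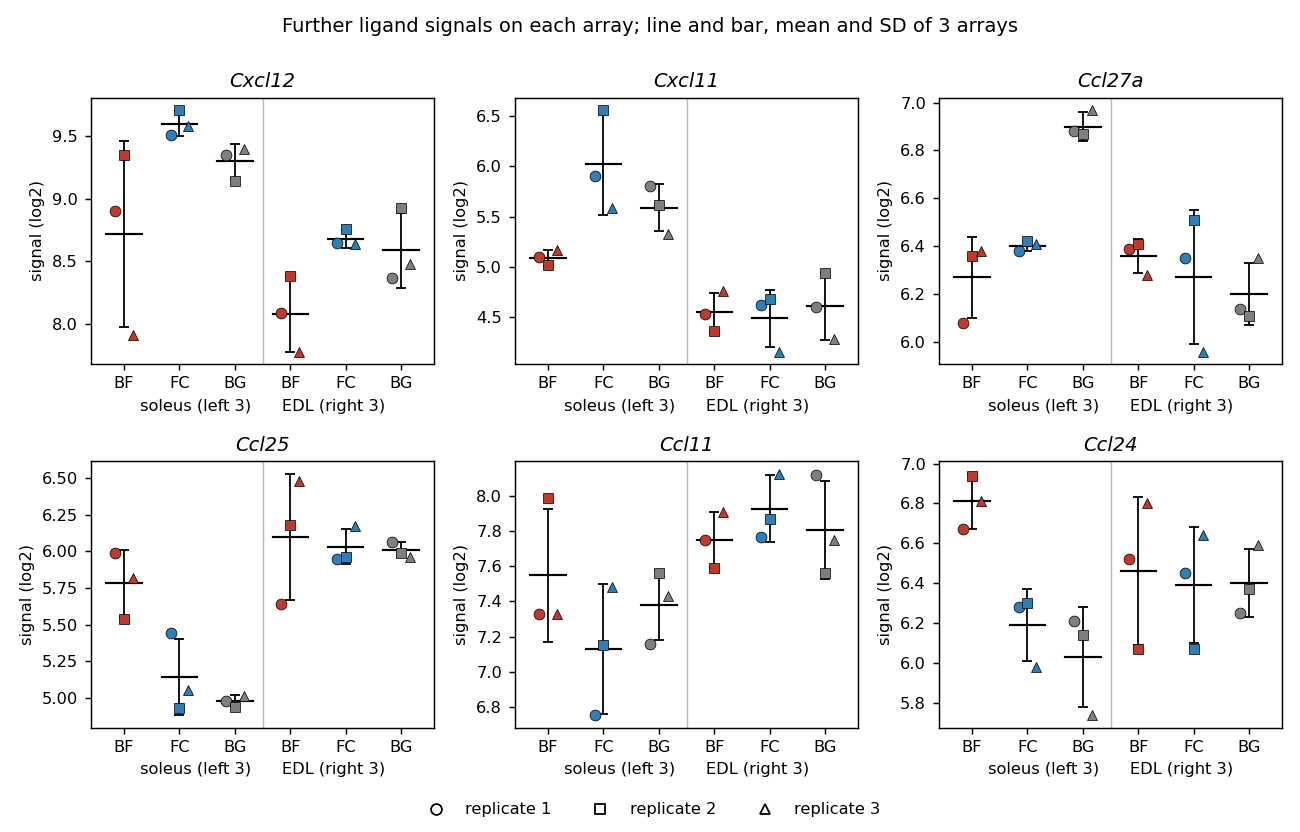
Log2 signal of Cxcl12, Cxcl11, Ccl27a, Ccl25, Ccl11 and Ccl24 on each array, drawn as in the plot of the raised ligands, with BF, FC and BG from left to right in soleus and then in EDL. In FC mice Cxcl11 and Cxcl12 lie higher in soleus than in EDL and Ccl25 and Ccl11 lower, and in Ccl27a the 3 BG soleus arrays stand above all others.

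Among the remaining 8 ligands, Cxcl12 and Cxcl16 changed beside Cxcl13. Cxcl12 (stromal cell-derived factor 1), the ligand of Cxcr4 that endothelial cells and fibroblasts make, had signals of 8.9, 9.35 and 7.91 in BF soleus, against 9.51, 9.71 and 9.58 in FC soleus and 9.35, 9.14 and 9.4 in BG soleus. The flown arrays lay below all FC arrays but replicate 2 reached the BG arrays. Cxcl12 fell by 0.88 ± 0.26 against FC (1.83-fold lower, adjusted p = 0.019) and gave -0.58 ± 0.26 against BG (adjusted p = 0.11). The call rested on BF soleus replicate 3 and FC soleus replicate 2: without the one it was -0.47 (adjusted p = 0.084) and without the other -0.82 (adjusted p = 0.068). It was also lost without moderation and with cyclic loess normalization (adjusted p up to 0.059). Its second probe set (mean 8.25) also fell against FC, by 0.45 ± 0.15 (adjusted p = 0.04). Cxcl16, a membrane-bound ligand of Cxcr6 that also takes up oxidized lipoprotein, rose against BG by 0.49 ± 0.15 (adjusted p = 0.025), with 7.76, 7.77 and 7.93 in BF against 7.53, 7.17 and 7.3 in BG soleus. It lost the call without BF soleus replicate 3 (adjusted p = 0.072), BG soleus replicate 2 (0.1) or BG soleus replicate 3 (0.076). A second, dimmer probe set of Cxcl16 (mean 4.49) gave 0.3 ± 0.14 against BG (adjusted p = 0.14), with overlapping arrays. Pf4, the platelet factor, gave 0.55 ± 0.24 (adjusted p = 0.11), Xcl1 0.28 ± 0.13 (adjusted p = 0.14), Cxcl17 0.27 ± 0.14 (adjusted p = 0.19) and Cx3cl1, the membrane-bound fractalkine, 0.04 ± 0.10 (adjusted p = 0.82). For Cxcl14, which acts on monocytes and whose receptor is unsettled, the probe sets disagreed: the one used here gave 0.29 ± 0.19 against BG (adjusted p = 0.27), and the dimmer one gave 1.37 ± 0.38 (adjusted p = 0.017) with overlapping arrays.

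Of the 17 receptors 1 rose and none fell in BF against BG soleus, where 11.1% and 12.3% of all genes did. The receptor was Ccr7, which guides dendritic and T cells to lymph nodes, with 4.07, 4 and 4.26 in BF against 3.8, 3.79 and 3.7 in BG soleus (0.35 ± 0.11, adjusted p = 0.035), and leaving out any of 5 of these 6 arrays, all but BF replicate 2, ended the call (adjusted p up to 0.12). The call was also lost in a fit of soleus alone, with the replicate number as a block, and with equal array medians, quantile or cyclic loess normalization (adjusted p of 0.054 to 0.16). None of the 17 passed in BF against FC soleus, where the lowest adjusted p was 0.14, beside 9.02% up and 16% down of all genes. The receptors of the ligands that rose gave low values: Ccr2, the receptor of Ccl2, Ccl7 and Ccl12, averaged 4.93 ± 0.27 in BF, 5.07 ± 0.05 in FC and 5.05 ± 0.16 in BG soleus (SD, n = 3 each, -0.12 ± 0.28 against BG, adjusted p = 0.79), Cxcr2 4.35 ± 0.51, 4.23 ± 0.16 and 3.88 ± 0.05 (0.47 ± 0.20, adjusted p = 0.11), Cxcr3 4.66 ± 0.11, 4.55 ± 0.11 and 4.35 ± 0.15 (0.31 ± 0.11, adjusted p = 0.059) and Cxcr5 4.06 ± 0.19, 3.87 ± 0.15 and 3.66 ± 0.15 (0.40 ± 0.14, adjusted p = 0.055), each in the order BF, FC and BG soleus. The other 2 probe sets of Ccr2 gave 0.16 ± 0.24 and -0.04 ± 0.15 against BG. For Cxcr4, the receptor of Cxcl12, the difference was -0.25 ± 0.15 (adjusted p = 0.26), for Ccr1 0.30 ± 0.18 (adjusted p = 0.24), for Ccr3 0.13 ± 0.16 (adjusted p = 0.6), for Ccr8 0.18 ± 0.11 (adjusted p = 0.25), for Ccr9 -0.09 ± 0.15 (adjusted p = 0.72), for Ccr10 0.11 ± 0.15 (adjusted p = 0.61), for Ccr4 0.39 ± 0.15 (adjusted p = 0.073) and for Cxcr6 0.04 ± 0.15 (adjusted p = 0.86). Ccr6, Ccr1l1, Cx3cr1 and Xcr1 lay between -0.08 and 0.10. Over all receptors the median difference was 0.11, and over all ligands 0.39.

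FC against BG soleus compares ground mice that differed in both housing and diet. None of the 50 rose and 1, Ccl27a, fell, against 5.78% and 4.03% of all genes. At an unadjusted p under 0.05 limma gave 1 upward and 1 downward, against 15.2% and 9.86% of all genes. The median difference of the 50 was 0.09, against 0.05 for all genes, and the FC arrays lay wholly above the BG arrays for 10 of the 50 (20%), as they did for 21.9% of all genes. For the 6 ligands with more than a 2-fold rise in flight the differences were 0.20 ± 0.47 for Ccl12, -0.33 ± 0.48 for Ccl2, -0.12 ± 0.27 for Ccl7, 0.00 ± 0.41 for Cxcl1, -0.07 ± 0.25 for Cxcl10 and -0.01 ± 0.25 for Cxcl13. These standard errors include the scatter of BF soleus, and for all but Cxcl13 they are well above what the ground arrays alone would give. Ccl12 had SDs of 0.08 in FC and 0.09 in BG soleus, and all its FC arrays lay above all its BG arrays. The arrays of the other ligands overlapped.

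In EDL, a fast muscle of the shin, none of the 50 passed in any comparison, and none did with BF EDL replicates 2 and 3 left out. The shares over all genes were also small: 0.266% rose and 0.113% fell in BF against BG, 1.02% and 2.52% in BF against FC, and 0.0242% and 0.00807% in FC against BG. At an unadjusted p under 0.05 limma gave 1 of the 50 upward and 1 downward in BF against BG (5.39% and 6.72% of all genes), 3 and 1 in BF against FC (6.56% and 11.3%), and 0 and 4 in FC against BG (5.74% and 5.33%). Against FC the lowest adjusted p was that of Ccl5 (RANTES, an attractant of T cells), with 6.22, 5.48 and 5.65 in BF EDL against 5.31, 5.33 and 5.12 in FC EDL. The groups did not overlap (0.53 ± 0.17, adjusted p = 0.091), and Ccl5 passed without BF EDL replicate 2. Ccr6 gave 0.38 ± 0.13 (adjusted p = 0.11), Cx3cr1 0.35 ± 0.17 (adjusted p = 0.28) and Cxcl12 -0.60 ± 0.26 (adjusted p = 0.23), the last with all BF EDL arrays below all FC EDL arrays. Against BG, Ccl5 gave 0.38 ± 0.17 (adjusted p = 0.37) and Cxcr4 -0.33 ± 0.15 (adjusted p = 0.41). In FC against BG EDL the 4 were Cxcr4 (-0.50 ± 0.15), Cxcr6 (-0.40 ± 0.15), Ccl20 (-0.33 ± 0.11) and Cx3cl1 (-0.23 ± 0.10), with adjusted p of 0.23 to 0.38. Ccl2 had 5.18, 4.79 and 5.06 in BF EDL, against 5.04, 5.1 and 5.03 in FC EDL and 5.54, 5.07 and 5.28 in BG EDL, and Ccl12 had 4.45, 3.92 and 4.21, against 4.13, 3.98 and 4.05 in FC EDL and 3.78, 3.97 and 3.84 in BG EDL. Neither gene had a flown EDL array near its soleus values of replicates 1 and 2. Ccl7 had 4.75, 4.65 and 4.68 in BF EDL, against 4.58, 4.51 and 4.36 in FC EDL and 4.35, 4.38 and 4.61 in BG EDL. Its flown EDL arrays lay above all ground EDL arrays, by 0.21 ± 0.27 on average from FC and 0.25 ± 0.27 from BG. Neither difference passed, and these standard errors include the scatter of BF soleus.

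Whether flight moved soleus more than EDL was tested directly, as the BF to BG difference of soleus minus that of EDL. In this test 6 of the 50 were higher in soleus and 1 was lower, against 4.21% and 5.04% of all genes. Ccl2 gave 2.65 ± 0.68 (2.36 in soleus and -0.29 in EDL, adjusted p = 0.026), Ccl12 2.35 ± 0.66 (2.68 and 0.33, adjusted p = 0.037), Cxcl10 1.46 ± 0.36 (1.08 and -0.39, adjusted p = 0.021), Ccl7 1.24 ± 0.38 (1.48 and 0.25, adjusted p = 0.0496), Cxcl13 1.15 ± 0.35 (1.15 and 0.00, adjusted p = 0.048) and Cxcl16 0.69 ± 0.21 (0.49 and -0.19, adjusted p = 0.049). Ccl27a was the gene lower in soleus, at -0.79 ± 0.18 (-0.63 and 0.16, adjusted p = 0.016). Most of these calls were near the threshold: leaving out single arrays ended that of Ccl7 for 17 of the 18 arrays, of Cxcl16 for 15, of Cxcl13 for 12, of Ccl12 for 8, of Ccl2 for 5, of Cxcl10 for 1 and of Ccl27a for 0. With BF EDL replicates 2 and 3 both left out, so that 1 array stood for BF EDL, all 7 calls were lost (adjusted p of 0.076 to 0.22, each in the same direction), and Ccl25 and Ccr2 were called instead. Cxcl1, with a similar gap of 1.51 ± 0.58, did not pass (adjusted p = 0.11). Second probe sets gave 0.29 ± 0.2 for Cxcl16 (adjusted p = 0.36) and 1.79 ± 0.51 for Cxcl13 (adjusted p = 0.038). Against FC the same test called none of the 50, against 0.855% and 1.19% of all genes, and 9 upward and 1 downward had an unadjusted p under 0.05, against 7.37% and 9.34%. Ccl2 gave 2.74 ± 0.68 there (adjusted p = 0.0502), Ccl12 2.35 ± 0.66 (0.0827) and Ccl7 1.40 ± 0.38 (0.0695). With the replicate number as a random block over the muscles Ccl2 and Ccl7 passed in the test against FC, and with it as a block within the muscle Ccl2 did. The counts swung with single arrays, from 1 called without BG soleus replicate 3 to 11 without BF EDL replicate 3 in the test against BG, and up to 5 without BF soleus replicate 3 in the test against FC.

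**Figure D4:**
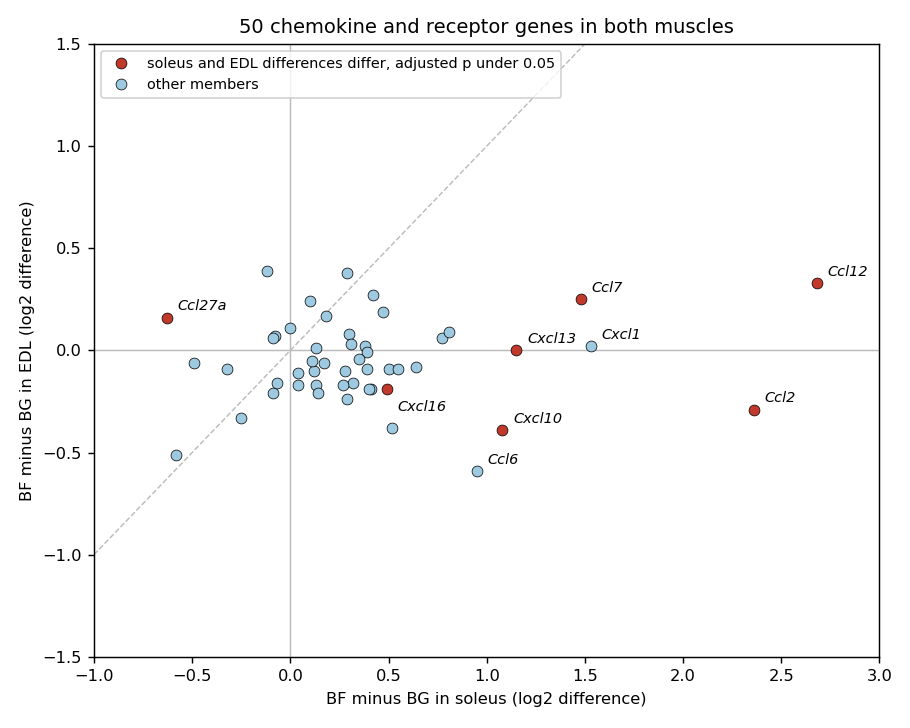
Log2 difference of BF from BG in soleus (horizontal) and in EDL (vertical) for the 50 genes; red points passed the test of the difference between the muscles, the solid lines are at 0 and the dashed line marks equal differences. Soleus values reach 2.68, for Ccl12, while EDL values stay between -0.59 and 0.39.

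Soleus and EDL of the FC mice, the unmanipulated muscles, differed for 4 of the 50: 2 were higher and 2 lower in soleus, against 8% and 8.4% of all genes. Cxcl11 had 5.9, 6.56 and 5.59 in FC soleus against 4.62, 4.68 and 4.16 in FC EDL (1.53 ± 0.22, adjusted p = 0.00015), and Cxcl12 had 9.51, 9.71 and 9.58 against 8.65, 8.76 and 8.64 (0.92 ± 0.26, adjusted p = 0.021). Neither gene's muscles overlapped. Lower in soleus were Ccl25, with 5.44, 4.93 and 5.05 in soleus against 5.95, 5.96 and 6.17 in EDL (-0.89 ± 0.18, adjusted p = 0.0023), and Ccl11, with 6.75, 7.15 and 7.48 against 7.77, 7.87 and 8.13 (-0.80 ± 0.20, adjusted p = 0.013). Among these, Cxcl11 and Cxcl12 fell and Ccl25 rose in BF against FC soleus, and those values share the FC soleus arrays with this comparison, so the matching of the signs is not independent. The Cxcl12 call was lost without FC soleus replicate 2 (adjusted p = 0.08), FC EDL replicate 1 (0.06) or FC EDL replicate 3 (0.068), and that of Ccl11 without FC soleus replicate 1 (0.078) or FC EDL replicate 3 (0.069). The Ccl25 call was lost with the replicate number as a block within the muscle (-0.56, adjusted p = 0.1) and that of Cxcl12 without moderation (0.059). With the number as a random block over the muscles, whose same-numbered FC arrays deviated together (r = 0.159 to 0.373), all 4 calls were kept. A second probe set of Cxcl11 gave 0.03 ± 0.11 and one of Cxcl12 -0.11 ± 0.15 between the muscles, so these probe sets disagreed.

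Many of the genes lie side by side in the genome. By RefSeq order on chromosome 11, Ccl2, Ccl7, Ccl11, Ccl12, Ccl8 and Ccl1 follow one another, and the BF to BG differences of soleus along this row were 2.36, 1.48, 0.17, 2.68, 0.42 and 0.41. Ccl11 lies between Ccl7 and Ccl12, which both rose, and did not pass. The next group on that chromosome, Ccl5, Ccl9, Ccl6, Ccl3 and Ccl4, gave 0.29, 0.52, 0.95, 0.32 and 0.12, and none of its genes passed. On chromosome 5, Cxcl1 and Cxcl2 adjoin and both rose, Cxcl15 just before Cxcl1 gave -0.32, and Cxcl9, Cxcl10 and Cxcl11 in one row gave -0.09, 1.08 and -0.49.

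**Figure D5:**
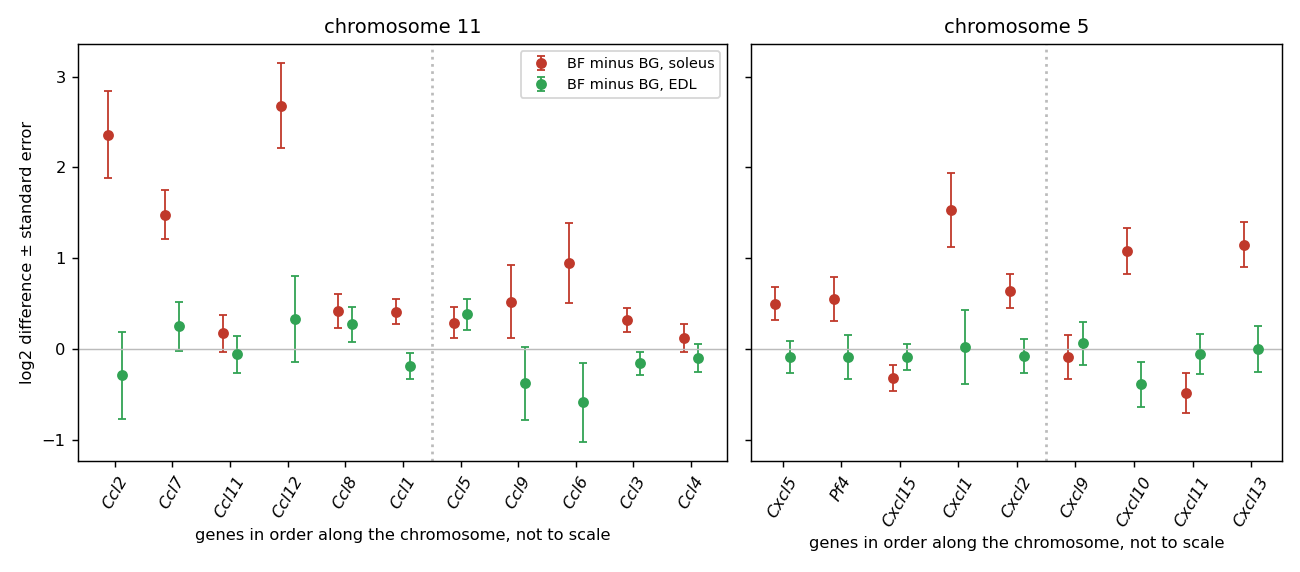
Log2 difference of BF from BG ± standard error in soleus (red) and EDL (green) for genes in their order on chromosome 11 (left) and chromosome 5 (right); genes are spaced evenly, not to scale, genes outside the 50 are left out and dotted lines separate groups of neighbours. Ccl2, Ccl7 and Ccl12 stand out on chromosome 11, at 1.48 to 2.68 in soleus, with Ccl11 between them at 0.17.

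The sequence before the start of transcription is shown for Cxcl1, Cxcl2, Cxcl10 and Ccl12. These are some of the ligands that rose in BF against BG soleus. Motifs of inflammatory transcription factors can be read in this sequence directly. The 250 bases before the RefSeq start (GRCm38.p6) are given 5′ to 3′ on the gene's own strand, and capitals mark matches, on either strand, to the NF-kappaB consensus, to the AP-1 motif TGANTCA and to the TATA box. The TATA box was searched as TATAAA. The regions are chr5:90890995-90891244 (plus strand) for Cxcl1, chr5:90903649-90903898 (plus) for Cxcl2, chr5:92348890-92349139 (minus) for Cxcl10 and chr11:82101595-82101844 (plus) for Ccl12.
Cxcl1: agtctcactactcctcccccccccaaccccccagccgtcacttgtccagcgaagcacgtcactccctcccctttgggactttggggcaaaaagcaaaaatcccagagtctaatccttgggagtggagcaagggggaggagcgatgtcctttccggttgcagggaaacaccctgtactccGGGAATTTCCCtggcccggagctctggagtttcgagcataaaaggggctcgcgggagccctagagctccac
Cxcl2: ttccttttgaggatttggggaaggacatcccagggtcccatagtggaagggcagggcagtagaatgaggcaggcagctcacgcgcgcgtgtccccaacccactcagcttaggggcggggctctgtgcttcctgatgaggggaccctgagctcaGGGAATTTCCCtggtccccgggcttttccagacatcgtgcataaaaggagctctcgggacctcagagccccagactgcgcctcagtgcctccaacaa
Cxcl10: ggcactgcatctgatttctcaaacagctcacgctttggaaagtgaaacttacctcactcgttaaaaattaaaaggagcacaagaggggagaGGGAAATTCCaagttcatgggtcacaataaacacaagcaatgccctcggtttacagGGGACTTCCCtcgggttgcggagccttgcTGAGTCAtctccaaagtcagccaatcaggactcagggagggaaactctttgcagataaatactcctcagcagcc
Ccl12: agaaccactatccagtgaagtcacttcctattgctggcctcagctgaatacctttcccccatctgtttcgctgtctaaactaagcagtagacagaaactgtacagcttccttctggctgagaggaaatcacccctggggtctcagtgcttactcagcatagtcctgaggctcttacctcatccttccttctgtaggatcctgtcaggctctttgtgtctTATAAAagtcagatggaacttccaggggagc
Cxcl1 and Cxcl2 carry the same block, 71 bases before the start in Cxcl1 and 97 in Cxcl2, in which the NF-kappaB consensus reads on both strands, in matches that overlap. Cxcl10 has a pair of NF-kappaB matches (159 and 103 bases before the start) and 1 AP-1 match (74 bases), and Ccl12 has a TATA box match 31 bases before the start and none of the others. The NF-kappaB consensus is found in 3.9% of 32851 promoters of this length and in 7 of the 37 chemokine and receptor genes in the table, which are Ccl20, Ccl9, Ccr3, Ccr6, Cxcl1, Cxcl10 and Cxcl2. The AP-1 motif is in 6.75% of promoters and in 5 of the 37 (Ccl27a, Ccl9, Ccr3, Ccr4 and Cxcl10). The TATA box letters are in 12.4% and in 11 of the 37, Ccl12, Ccl25 and Cxcl13 among them. A gene counted if any of its promoters matched, and 3 of the 37 have more than 1 promoter. The percentages count single promoters, so the units differ. Promoters of Ccl2, Ccl7, Ccl24, Cxcl5, Cxcl16 and Ccr7, which rose against BG, and of Ccl11 and Cxcl11 were not analysed here. Of the 4 other genes with the NF-kappaB consensus none rose in BF soleus against BG or FC by the probe sets used, with differences from BG of 0.13 for Ccl20, 0.52 for Ccl9, 0.13 for Ccr3 and 0.10 for Ccr6. Among ligands that rose against BG or FC, the promoters of Ccl1, Ccl3, Ccl12, Ccl17, Ccl25 and Cxcl13 held no NF-kappaB match. A match is a run of letters and not evidence of binding.

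The 3 BF soleus arrays were ordered alike for many of the raised genes. Of the 13 that rose against BG, 7 (Ccl2, Ccl7, Ccl12, Cxcl1, Cxcl2, Cxcl5 and Cxcl10) were highest in replicate 2, then in replicate 1, and lowest in replicate 3, while Ccl1, Ccr7 and Cxcl16 were highest in replicate 3. Markers of other cells differed between the same arrays. The mean of 20 macrophage and monocyte markers was 6.34, 6.97 and 6.39 in BF soleus replicates 1, 2 and 3, against 6.31 to 6.45 in FC soleus and 5.98 to 6.17 in BG soleus, and that of 7 adipocyte markers 9.58, 10.36 and 9.24, against 8.62 to 8.72 and 8.24 to 8.63. Against BG, where 11.1% of all genes rose and 12.3% fell, 4 of 20 of the macrophage list rose and none fell. Against FC 2 rose and 2 fell, beside 9.02% up and 16% down of all genes. In FC against BG soleus 2 were higher and none lower, beside 5.78% and 4.03% of all genes. The largest difference from BG was that of Cd68, a lysosomal protein of macrophages (9.8, 10.9 and 8.38 in BF soleus, against 6.48, 6.33 and 5.95 in FC and 6.09, 6.17 and 6.62 in BG soleus, 3.40 ± 0.39, adjusted p = 3.6e-05), with Plac8 (1.10 ± 0.24), Fcgr1 (0.61 ± 0.19) and Aif1 (0.49 ± 0.13). Cd68 was highest in replicate 2 and lowest in replicate 3, as Ccl2 was. Of the adipocyte list 5 of 7 rose against BG and 4 against FC, led against BG by Lep (2.96 ± 0.41), Cidec (2.48 ± 0.47) and Adipoq (2.34 ± 0.42), and Lpl fell by 0.89 ± 0.14. The other leukocyte lists had few calls against BG, most of them shares near or below that of all genes. In the neutrophil list 1 of 12 rose (S100a8, 1.07 ± 0.33), in the mast cell list 3 of 8 (Cpa3 1.12 ± 0.34, Cma1 0.94 ± 0.29, Mcpt4 0.64 ± 0.20), in the T and NK cell list 1 of 15 (Cd3d, 0.61 ± 0.16), in the B cell list 1 of 7 (Ighm, 0.56 ± 0.16) and in the dendritic cell list 1 of 8 (Cd209a, 0.47 ± 0.16). Against FC, where 9.02% of all genes rose and 16% fell, 2 of the neutrophil list and 1 of the T and NK cell list rose, none of the mast cell and B cell lists passed, and 1 of the dendritic cell list fell. Against BG, where 12.3% of all genes fell, 4 of 8 endothelial markers fell (Kdr, Vwf, Tie1, Tek) and 1 rose (Cldn5). Of 8 fibroblast markers 3, the collagens Col1a1, Col3a1 and Col1a2, fell against BG. Against FC 5 endothelial markers fell and 1 rose, and 5 fibroblast markers fell and none rose. Of 6 fast fibre markers 4 rose against either control. Their mean was 13.48 to 13.95 in BF soleus, against 11.45 to 12.33 in FC and 11.3 to 12.71 in BG soleus. In whole muscle, more cells of a type and more RNA per cell cannot be told apart, and the part of these markers in the chemokine values was not tested.

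Genes that act with the chemokines gave the following counts in BF against BG soleus, beside 11.1% up and 12.3% down of all genes. Among 27 inducers and NF-kappaB genes 5 rose and 2 fell. Against FC 2 rose and 1 fell, beside 9.02% up and 16% down of all genes. Il6, the cytokine, had 3.89, 4.88 and 3.34 in BF soleus, against 3.18, 3.04 and 3.07 in FC and 3.15, 3.16 and 3.11 in BG soleus (0.90 ± 0.24, adjusted p = 0.014), again with replicate 2 highest. Il1r1, the interleukin 1 receptor, rose by 0.77 ± 0.15 and the subunit gene Nfkb2 by 0.71 ± 0.21, and Cebpb, a transcription factor of inflammatory genes, fell by 0.95 ± 0.23. Among 26 genes of receptor signalling 5 rose and 1 fell: the G protein subunit Gnai3 (0.89 ± 0.16), the arrestin Arrb2 (0.61 ± 0.12) and the GTPase Rac2 (0.59 ± 0.14) led, and Elmo1, a guanine exchange partner of Rac, fell by 0.59 ± 0.18. Against FC 3 of these 26 rose and 3 fell. In FC against BG soleus 5 were higher and 0 lower, beside 5.78% and 4.03% of all genes. Among 11 atypical receptors and other chemotactic factors 2 rose and 2 fell against BG, and 0 rose and 1 fell against FC. Rarres2 (chemerin, 0.51 ± 0.16) and Ccrl2, which binds it without signalling (0.42 ± 0.14), rose, while Ackr3, the scavenger of Cxcl12, fell by 0.77 ± 0.22 and Mif, which can bind Cxcr2 and Cxcr4, by 0.45 ± 0.10. The median differences of these lists from BG were 0.20, 0.16 and 0.02, against 0.03 for all genes.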

How the data were processed

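RNA of 9 soleus and 9 EDL muscles was hybridized to Affymetrix Mouse Genome 430A 2.0 arrays. The authors processed all 18 arrays together in Partek Genomics Suite 6.6 by robust multichip averaging (RMA: a background model, quantile normalization across arrays, logarithms, and median polish over the probes of a set), and the deposited values are log2 signals per probe set. Quantile normalization forces the arrays to one distribution, and a log2 difference of dim probe sets understates the true change.

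From these values the 64 control probe sets were removed, and 22626 probe sets were fitted with a mean per group (6 groups of 3 arrays) in limma 3.58.1 (R 4.3.3), with moderated variance (12 residual and 5.1 prior degrees of freedom) and Benjamini-Hochberg adjustment over all probe sets. A gene was called at an adjusted p under 0.05. Genes come from the platform annotation, with 20380 probe sets naming 1 gene, 691 several and 1555 none, and names were updated by Entrez number. All 50 genes matched a RefSeq record. A further 4 probe sets that name Ccl27a with Ccl27b, the Ccl21 copies or Ccl19 with others were not used. Promoters and gene order come from RefSeq (GRCm38.p6). With 3 arrays against 3 an exact permutation test cannot give a p under 0.1. The number of arrays limits the precision.

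The genes and lists were chosen with earlier results of these data known. Genes named in the text are those called in any comparison, the receptors and ligands of these, the 5 highest and 3 lowest mean signals, up to 4 called genes per list with the largest change in BF against BG soleus, and 6 ligands named in the study. Marker lists are given by counts, leading genes and mean levels. The labels do not say whether replicate numbers pair the arrays. Alternatives were fits without moderation, per muscle, with blocks, array weights, a trended prior, other scalings, a signal filter, all probe sets of a gene, other thresholds, each array left out and, chosen after seeing the data, cyclic loess and BF EDL by replicate 1 alone.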

Additional observations from a re-analysis of the deposited data

Results flagged for a closer look

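The flight difference was not the same in both muscles for 7 of the 50 genes, by a test of the difference itself (BF minus BG of soleus minus BF minus BG of EDL, limma). It was larger in soleus for Ccl2 (2.65, adjusted p = 0.0262), Ccl12 (2.35, 0.0368), Cxcl10 (1.46, 0.0207), Ccl7 (1.24, 0.0496), Cxcl13 (1.15, 0.0482) and Cxcl16 (0.69, 0.0486), and lower for Ccl27a (-0.79, 0.0161). Against FC none of these passed, with adjusted p of 0.0502 to 0.633, though Ccl2 and Ccl7 did with a random replicate block over the muscles and Ccl2 with a block within the muscle. Ccl27a alone passed without each array in turn and under all alternatives but the 2-fold rule, which it is too small to meet, and BF EDL by replicate 1 alone, where all 7 lost the call (0.076 to 0.22). The 0.633 against FC was that of Ccl27a, at -0.21. In soleus its FC arrays were also below BG (-0.5 ± 0.13, adjusted p = 0.019), while BF and FC differed by -0.13 ± 0.13 (adjusted p = 0.51). A second probe set of Cxcl16 did not pass the test against BG. Groups of 3 arrays were too small for a test of single outlying arrays.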

How the results depend on the processing

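Across 38 single-gene results and all settings but the 2-fold rules, 1075 values in all, 904 kept direction and call, 171 kept direction and lost the call and 0 reversed. With 1 array left out in turn, the number of genes called ran from 9 to 14 in BF against BG soleus, 8 to 13 in BF against FC soleus, 0 to 1 in FC against BG soleus, 0 to 0 in both BF against BG and FC against BG of EDL, 0 to 1 in BF against FC of EDL, 1 to 11 and 0 to 5 in the differences between muscles against BG and FC, and 2 to 5 in FC soleus against EDL. An array left alone with its partner is assumed to vary like the other groups.

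The difference between muscles against BG, 7 genes as reported, fell to 1 without moderation, to 2 with BF EDL by replicate 1 alone (other genes, Ccl25 and Ccr2) and to 4 with a trended prior, a signal filter of 5, equal array medians, quantile normalization or cyclic loess. Against FC, 0 genes as reported, it gave 1 with the signal filter, equal medians, quantile normalization or BF EDL by replicate 1 alone. Array weights (0.3 for BF soleus 2 to 3.18 for BF EDL 1) raised the counts to 22 in BF against BG soleus, 2 in FC against BG soleus, 1 and 6 in BF against BG and FC of EDL, and 17 and 7 in the differences between muscles; the cause was not tested. The signal filter left 6 genes in BF against BG and 7 in BF against FC soleus, since it removes 23 of the 50. Asking for over 2-fold left 6, 6 and 0 in the soleus comparisons and 1 between FC muscles. Fits per muscle give no difference between muscles.

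Whether replicate numbers pair the samples is not settled. Correlations of same-numbered deviations were -0.0631 to 0.242 between conditions in soleus (over 0.1 for 3 of 9 pairs), -0.133 to 0.297 in EDL (4 of 9) and -0.0491 to 0.373 between muscles (6 of 9, with all 3 FC pairs among them). With the replicate number as a block, 17 genes were called in BF against BG and 13 in BF against FC soleus, and 9 and 1 in the differences between muscles. A random block gave 14, 12, 8 and 2.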

Other observations

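Beyond the genes above, Cxcl14 is a case for a closer look: its dimmer probe set (mean 7.12) was 1.37 ± 0.38 higher in BF than in BG soleus (adjusted p = 0.017) and 1.29 ± 0.38 higher than in FC soleus (adjusted p = 0.02), and its brighter one gave 0.29 ± 0.19 and -0.13 ± 0.19. Ccl9 had a second probe set (mean 5.59) that was higher in BF than in FC soleus by 1.42 ± 0.43 (adjusted p = 0.024), with the main one at 0.65 ± 0.40 (adjusted p = 0.26). A second Cx3cl1 probe set (mean 5.45) was higher in BF than in BG soleus by 0.48 ± 0.16 (adjusted p = 0.036), and the main one gave 0.04 ± 0.10. These probe sets were picked after their values were seen.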
